A study of Mus musculus with 200 samples.

Results

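The nuclear genes of oxidative phosphorylation were followed in whole mouse embryos at E11.5. The members are all genes of the deposited expression tables whose symbol begins with Nduf, Uqcr, Cox4 to Cox8 or Atp5, which gave 86 of 22033 genes. By their known place in the respiratory chain, 40 belong to complex I, 8 to complex III, 20 to complex IV and 15 to complex V. The remaining 3, *Cox4nb*, *Atp5s* and *Atp5sl*, match the symbol rule but encode no subunit of a complex. The complex I group includes the assembly factors *Ndufaf1* to *Ndufaf4*, and *Ndufa4* and *Ndufa4l2* were placed with complex IV.

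Complexes I, III and IV of the inner mitochondrial membrane pass electrons from NADH to oxygen and pump protons, and complex V, the ATP synthase, uses the proton gradient to make ATP. Complexes I, III, IV and V are built from nuclear subunits together with a few subunits encoded by mitochondrial DNA, so that their assembly draws on both genomes. Several complex IV subunits exist as a ubiquitous form and a form of heart and skeletal muscle, lung or testis. None of the 13 mitochondrially encoded subunits is listed in the tables used here.

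Expression was measured by 3SEQ, which reads the 3′ ends of polyadenylated RNA, in embryos of C57BL/6J (B6) and CAST/EiJ (Cast) ancestry, with the mother named first in each cross. The F1 embryos came from both reciprocal crosses, 8 B6 × Cast and 8 Cast × B6. The F1 crosses therefore differ in their mitochondrial genome, in the mother and, in males, in the strain of the X and Y chromosomes. The 154 N2 embryos came from B6 mothers and F1 fathers (B6 × F1, n = 89) or from F1 mothers and B6 fathers (F1 × B6, n = 65). The F1 animals descended from B6 females, so every N2 embryo carries B6 mitochondria and is either homozygous B6 or heterozygous at each autosomal gene. Each F1 cross is made of 2 litters of different stage. B6 × Cast litter 3 (n = 3) had 58 to 63 somites and litter 5 (n = 5) had 48 to 50. Cast × B6 litter 1 (n = 4) had 41 to 43 somites and litter 2 (n = 4) had 46 to 48. These ranges rest on 2, 5, 3 and 3 embryos, since the labels give no somite number for 1 embryo of each litter but litter 5. Somite number was recorded for 147 N2 embryos and ran from 42 to 57.

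Between 15703888 and 38234229 reads were counted on genes per F1 embryo, and between 245220 and 5370322 per N2 embryo, 13 of which had fewer than 1000000. Each count was scaled by that total to reads per 1000000 (RPM). Of the 14 sequencing lanes of the N2 embryos, 8 hold only embryos of B6 mothers, 5 only embryos of F1 mothers and 1 both, so that lane and mother can hardly be told apart. Lane accounted for 68.5% of the variance in the ranks of the median member and for 59.7% in the median gene. An embryo was taken whole, so fewer cells of a type and less RNA per cell cannot be told apart in any value below.

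The promoters of the members were searched for motifs of factors known from nuclear genes of the respiratory chain. Promoter sequence, from 250 bases before to 50 after the transcript start, was found for 71 of the 86 members in RefSeq (GRCm38.p6). On either strand, the letters GCGCATGCG of the NRF1 site, the binding site of nuclear respiratory factor 1, occurred in 9 of these 71 promoters (12.7%) and in 1.81% of 27025 RefSeq promoters. The windows below are those with the full 30 bases around the site, shown because the share of this motif differed most between the members and all promoters among the 5 motifs searched. The 9 bases of the site are in capitals and each window is read along its gene's strand.
Atp5g2: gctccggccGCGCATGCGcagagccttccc
Atp5k: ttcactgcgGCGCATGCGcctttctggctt
Atp5l: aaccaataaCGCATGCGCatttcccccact
Cox6a1: aggaacgggGCGCATGCGcgctctcgctcc
Ndufa11: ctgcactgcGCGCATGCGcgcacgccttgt
Ndufa8: cgctggagaCGCATGCGCagatggtaccgg
Ndufaf4: cagatgtctGCGCATGCGcctgtgcggaag
Uqcr11: tcgccttcaCGCATGCGCtatacgtctgca

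In GRCm38.p6 these windows lie at chr15:102671069-102671098 for *Atp5g2*, chr5:108434429-108434458 for *Atp5k*, chr9:44920963-44920992 for *Atp5l*, chr5:115349100-115349129 for *Cox6a1* and chr2:36049327-36049356 for *Ndufa8*, all on the minus strand. That of *Uqcr11* lies at chr10:80406806-80406835, also on the minus strand, and those of *Ndufa11* and *Ndufaf4* at chr17:56717693-56717722 and chr4:24897961-24897990 on the plus strand. The site begins 5 bases before the start of *Uqcr11* and 9 before that of *Ndufa8*, and 241 before that of *Atp5l*. The ninth promoter with the letters is that of *Uqcrc1*. The ETS core CCGGAAG, bound by GABP, was found in 14 of the 71 promoters (19.7%, against 9.12% of all). The YY1 core AAGATGGCG was found in 7 (9.86%, against 1.49%), the ERR half-site TCAAGGTCA in 1 (1.41%, against 0.407%) and the TATA box letters TATAAA in 7 (9.86%, against 14.2%). A match gives only the presence of these letters, and each motif was counted on its own even where a promoter held several.

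The members together made up 3.67% of all reads on genes in N2 embryos (lowest 2.08%, highest 5.07%) and 3.88% in F1 embryos. The highest was *Atp5b*, the catalytic beta subunit of ATP synthase, at 3084 ± 774 RPM (SD, n = 154). *Cox4i1*, the ubiquitous form of the complex IV subunit that binds ATP, followed at 2717 ± 1036 RPM. *Ndufa3* of complex I, at 1780 ± 567 RPM, and *Atp5e*, the epsilon subunit of ATP synthase, at 1764 ± 772 RPM, lay within each other's spread. *Cox6b1* of complex IV reached 1581 ± 392 RPM, *Atp5d*, the delta subunit of ATP synthase, 1486 ± 499 RPM, and *Uqcrc1*, a core protein of complex III, 1307 ± 638 RPM. Next in their complexes were *Ndufa13* (1115 ± 214 RPM) and *Ndufa2* (1022 ± 289 RPM) of complex I, *Uqcrq* (983 ± 298 RPM) and *Uqcr10* (697 ± 195 RPM) of complex III and *Cox6a1* (735 ± 295 RPM) of complex IV. Because 3SEQ reads the 3′ end, these levels were not divided by length.

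Subunits of one complex, which meet in fixed numbers in the assembled enzyme, were far from equal in read number. In N2 embryos 11 members had at least 1000 RPM, while 9 had a mean under 5 RPM, namely *Ndufs3*, *Ndufs5*, *Ndufab1*, *Uqcrb*, *Cox7b2*, *Cox8c*, *Atp5g2*, *Atp5l* and *Atp5s*. The core complex I subunit *Ndufs3* was read at 2.46 ± 1.70 RPM and *Uqcrb* of complex III at 1.99 ± 3.73 RPM. The mRNA ends of *Ndufs3*, *Ndufs5*, *Uqcrb*, *Atp5g2* and *Atp5l* match other places in the mouse genome mm9. The best matches have 99.66%, 100%, 97.99%, 100% and 100% identity, over 298 to 301 aligned bases. By the same search, the ends of *Ndufab1*, *Cox7b2*, *Cox8c* and *Atp5s* have no match. Whether reads of these genes were lost in the removal of repetitive positions was not tested, so their low read numbers need not be low expression. No member was without a read in either cross type. Summed over the complex, complex I held 16622 ± 2930 RPM, complex V 9754 ± 2099, complex IV 6537 ± 1253 and complex III 3521 ± 620 (SD, n = 154).

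**Figure D1:**
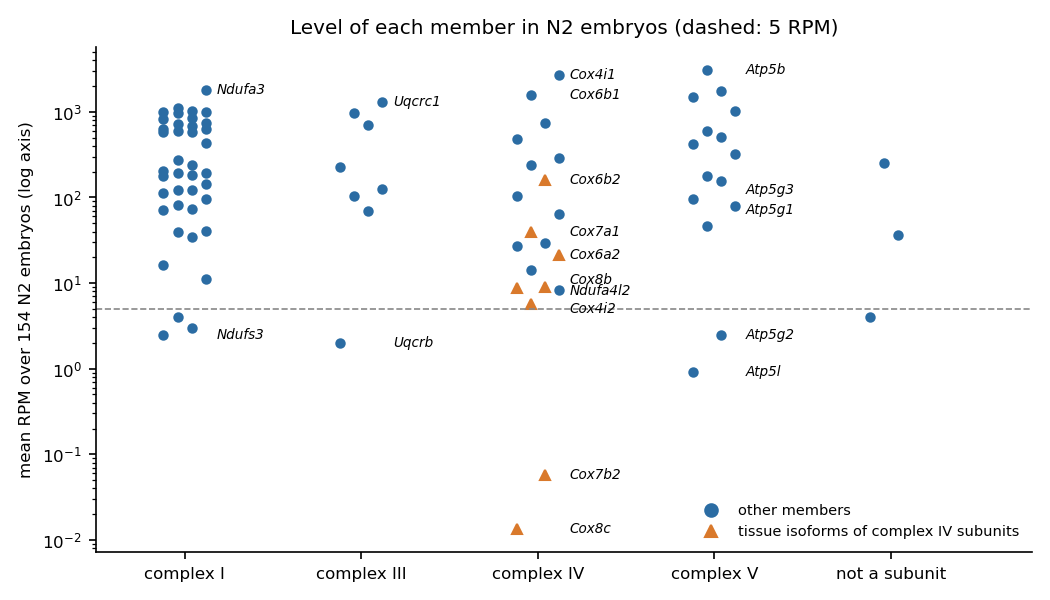
Mean RPM of each member over 154 N2 embryos (log axis), grouped by complex, with 1 point per gene, triangles for tissue forms of complex IV subunits and a dashed line at 5 RPM. Genes of a single complex spread from under 5 RPM to over 1000 RPM, with *Atp5b* highest at 3084 RPM.

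Of each pair of complex IV isoforms, the ubiquitous form was the more abundant. *Cox4i1* stood at 2717 RPM and *Cox4i2*, the form of lung, at 5.73 ± 3.36 RPM. *Cox6a1* stood at 735 RPM and *Cox6a2*, the form of heart and skeletal muscle, at 21.1 ± 7.50 RPM. *Cox8a* was read at 289 ± 128 RPM, its muscle partner *Cox8b* at 8.92 ± 3.72 RPM and the testis form *Cox8c* at 0.0133 RPM. *Cox7a2* was read at 483 ± 275 RPM, the muscle form *Cox7a1* at 39 ± 13 RPM and the supercomplex factor *Cox7a2l* at 14.4 ± 10.9 RPM. *Cox7b*, on the X chromosome, was read at 104 ± 104 RPM and *Cox7b2* at 0.0580 RPM. *Cox6b2*, known as a testis form, was read at 160 ± 79.1 RPM, well under *Cox6b1*. *Ndufa4* had 64.4 ± 49.7 RPM and its relative *Ndufa4l2*, known from hypoxia, 8.70 ± 4.04 RPM. Of the 3 genes for subunit c of ATP synthase, which encode the same mature protein, *Atp5g3* had 97.2 ± 109 RPM, *Atp5g1* 79 ± 47 RPM and *Atp5g2* 2.48 ± 1.99 RPM, and the first and second did not differ beyond their spread. The mRNA ends of these 3 genes match 2, 6593 and 6 other places in mm9, for *Atp5g2* at up to 100% identity. The part of reads dropped as repetitive in these levels was not tested.

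The F1 embryos gave the same order within each pair of a ubiquitous and a tissue form. In them *Cox4i1* averaged 2975 RPM against 6.12 for *Cox4i2*, *Cox6a1* 986 against 40.9 for *Cox6a2* and *Cox8a* 427 against 7.96 for *Cox8b*. Some members were read at quite different levels in the 2 generations, which were sequenced separately. *Ndufb4* had 3.28 RPM in F1 and 40.4 in N2 embryos, *Atp5f1* 30.8 and 157, *Cox7c* 6.57 and 27.3, and *Cox7b* 28.2 and 104. *Ndufa4* went the other way, with 162 RPM in F1 and 64.4 in N2 embryos. The generations were not tested against each other.

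Members of the chain did not vary together as 1 group across N2 embryos. The median Spearman's rho over all pairs of the 77 members with at least 5 RPM was 0.0720, and it was −0.0171 between a member and a gene outside the list, given as a description over 154 embryos that share lanes. Within complexes the median was 0.0999 for complex I, 0.0978 for complex IV, −0.0811 for complex III and −0.0841 for complex V. The pair closest to each other was *Cox4i1* and *Ndufa11*, at 0.855.

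Instead, the members were spread along 1 axis that held 43.3% of the variance in their ranks. Across the 77 members, which are not independent replicates, the place on this axis had a Spearman's rho of 0.635 with the GC content of the last 300 bases of the mRNA, which ran from 28% to 59.3% with a median of 47.3%. With lane removed the axis held 29.8% of the variance and rho was 0.754. At one end then stood *Atp5a1*, *Uqcrfs1* and *Cox7b*, and at the other *Ndufv1*, *Ndufa11* and *Atp5d*. Over all 10007 genes with at least 5 RPM, 9748 of which had a GC content, rho was 0.658 and, with lane removed, 0.650. The relation was looked for after the data had been seen.

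The slope of expression on GC content, taken per embryo over genes outside the list, differed between lanes. Its mean per lane ran from −0.70 to 0.47 (log2 per 10 percentage points of GC), and 5 lanes of the second flowcell were negative while the other 9 were positive. The 39 members of lower GC content summed to between 6649 and 14990 RPM in the mean of a lane, a 2.25-fold range. The 38 of higher GC content summed to between 16610 and 30016 RPM, a 1.81-fold range. By mother, the slope averaged 0.012 ± 0.490 for B6 × F1 (SD, n = 89) and −0.017 ± 0.398 for F1 × B6 (SD, n = 65). For somite number and for the mother's genotype, an alternative with this slope regressed out was also run. The other comparisons below were not run with the slope removed.

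**Figure D2:**
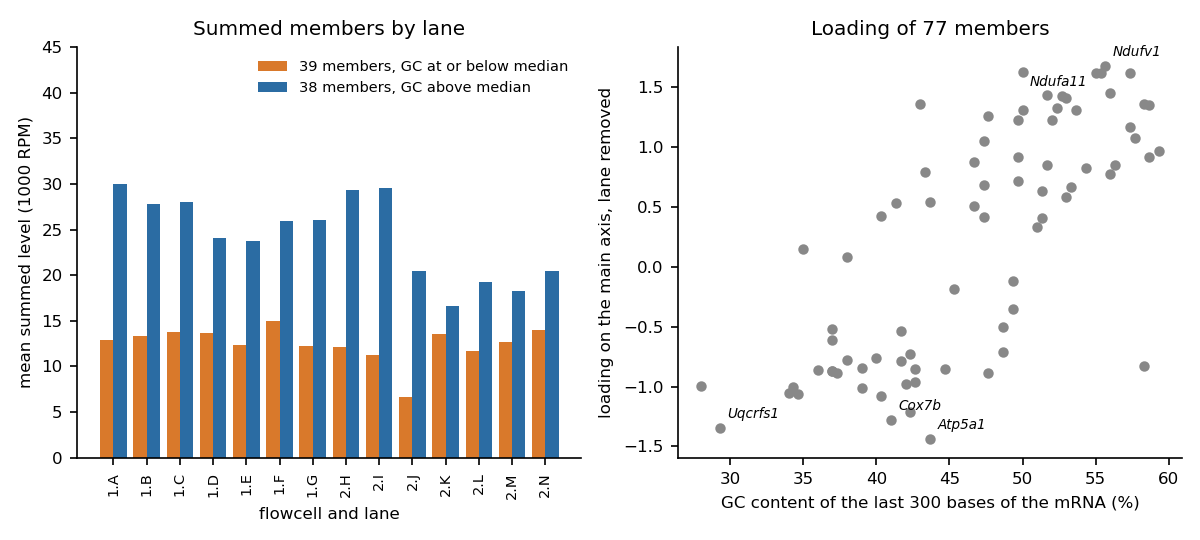
Left, mean summed level (axis in 1000 RPM) of the 39 members of lower and the 38 of higher GC content in each of the 14 N2 lanes, named by flowcell and lane. The lower group lies between 6649 and 14990 RPM and the higher between 16610 and 30016 RPM. Right, the loading of each of the 77 members on the main axis of N2 variation with lane removed, against the GC content (%) of the last 300 bases of its mRNA, where low GC content goes with negative loadings.

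Of the 77 members tested, 9 changed with somite number, 8 of them upward, against 22% of all 10007 genes tested (Spearman's correlation, Benjamini-Hochberg q under 0.05). Among those that rose were the muscle forms *Cox8b* and *Cox6a2*, the lung form *Cox4i2* and the hypoxia-linked *Ndufa4l2*, each at low level. The others that rose were the abundant *Ndufb10* and *Ndufb7* of complex I, *Uqcrc1* of complex III and *Cox4i1*. The 1 that fell was *Ndufs6*, a complex I subunit. The median rho was −0.0358 over the members, 34 of which were positive, and −0.0241 over all genes, 44.2% of which were positive. The count depended on which embryos were used. Within B6 × F1 embryos 43 members changed, 16 upward and 27 downward (51.6% of all genes), and within F1 × B6 embryos 19 did (23.1%). On the second flowcell the count was 32, 24 of them downward (39.2%), and without the 13 libraries under 1000000 reads it was 21, 17 of them upward (27.3%).

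*Cox8b* was read at 0.637 RPM in the lowest, 7.49 in the median and 16.1 in the highest of the 55 embryos with at most 47 somites. In the 48 embryos with 51 somites or more it was 0, 11.1 and 18.5 RPM. The groups overlapped widely, and the means, 7.31 ± 2.89 and 10.9 ± 4.28 RPM, differed by 0.58 on the log2 scale. Over the 147 embryos, rho was 0.370 (permutation p = 2e-05, q = 8.72e-05) and Pearson's r was 0.351 (permutation p = 3e-05), or 0.312 without the 2 embryos farthest from the median stage. Within flowcells rho was 0.358 and 0.370, and with lane removed it was 0.448 (q = 4.41e-06).

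*Cox6a2* had 8.76, 17.5 and 33.4 RPM (lowest, median, highest) in the younger embryos and 0, 23.8 and 42.6 in the older. Its rho was 0.290 (permutation p = 0.00035, q = 0.00381) and r 0.267 (permutation p = 0.0009), or 0.242 without those 2 embryos. Within flowcells rho was 0.399 and 0.257, and with lane removed 0.373 (q = 0.000294). *Cox8b* and *Cox6a2* were thus the 2 members that rose with and without lane in the model. In a further alternative, counts were divided by the TMM factor alone and not by the library total, so that depth remains in the values. None of the 9 members passed in it and 1 other fell, against 6.27% of all genes. The rho of *Cox8b* in that setting was 0.241 (q = 0.0514), that of *Cox6a2* 0.200 (q = 0.112) and that of *Ndufs6* −0.13 (q = 0.354). Because depth was left in, it cannot show whether these calls hold under TMM library sizes. With the mean of each litter as 1 value, *Cox8b* alone passed (rho = 0.636, q = 0.0192).

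The other 6 that rose did not pass once lane was removed. *Uqcrc1* had a median of 973 RPM in the younger and 1272 in the older embryos (lowest 385 and 715, highest 2703 and 3487), with rho = 0.292 (permutation p = 0.0005) and r = 0.289 (permutation p = 0.00034), or 0.272 without the 2 embryos. With lane removed its rho was 0.00177. *Ndufb10* had medians of 604 and 701 RPM (lowest 388 and 511, highest 966 and 973), with rho = 0.312 (permutation p = 0.00015) and r = 0.300 (permutation p = 0.00024), or 0.293 without the 2 embryos. Its rho within flowcells was 0.377 and 0.264, and 0.152 with lane removed. *Ndufa4l2* had medians of 7.16 and 9.85 RPM (lowest 0.615 and 0, highest 23.9 and 17.3) and *Cox4i2* of 4.07 and 5.65 (lowest 0.630 and 0, highest 12.6 and 16.4). With lane removed their rho fell to 0.0883 and 0.0233. The abundant *Cox4i1* (medians 2314 and 2876 RPM) and *Ndufb7* (798 and 967 RPM) missed the threshold in the same way. The GC content of the 3′ end of these 6 ran from 49.7% (*Ndufb10*) to 59.3% (*Ndufa4l2*), with 55.0% for *Cox4i1* and 57.7% for *Ndufb7*. Of the 2 that rose with and without lane, *Cox8b* lies within this range and *Cox6a2* below it, at 43.3%.

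*Ndufs6* had 82.1, 204 and 317 RPM (lowest, median, highest) in the younger and 31.1, 143 and 353 in the older embryos. Its rho was −0.279 (permutation p = 0.00064, q = 0.00578) and r −0.300 (permutation p = 0.00025), or −0.274 without the 2 embryos. With lane removed rho was −0.281 (q = 0.0138), but it was −0.0183 in the first flowcell and −0.471 in the second. With lane removed, *Cox6b2*, *Uqcrh* and *Atp5e* also rose and *Ndufa2* fell, so that 7 members changed, 3 of them in common with the 9. The share of all genes called with lane removed is not given here, so the 7 cannot be set against it.

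**Figure D3:**
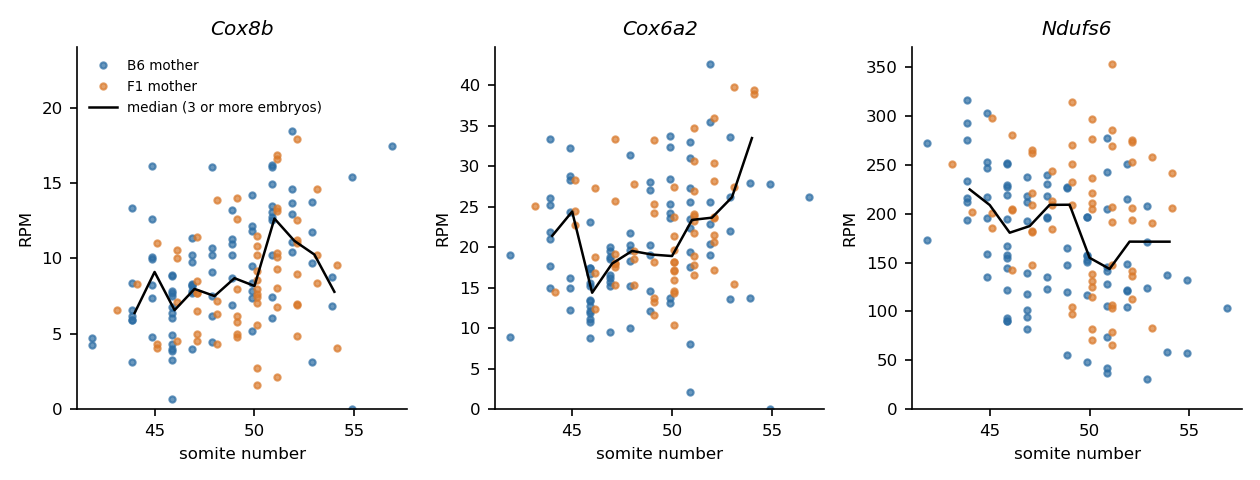
RPM against somite number in 147 N2 embryos for *Cox8b*, *Cox6a2* and *Ndufs6*, with 1 point per embryo coloured by the mother's genotype and a line through the median of each somite number held by at least 3 embryos. *Cox8b* and *Cox6a2* are higher at 51 somites or more (medians 11.1 and 23.8 RPM) than at 47 or fewer (7.49 and 17.5 RPM), with wide overlap, and *Ndufs6* is lower.

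Markers of other cell types changed with somite number as well, to be read against the 22% of all genes. Of 10 heart and striated muscle markers, *Actc1*, *Tnni1* and *Tnnc1* rose, with and without lane in the model, and *Myh6* and *Myl7* fell with lane removed only. The summed level of the 10 ran from 1204 to 4303 RPM across N2 embryos. All 6 hepatocyte markers tested rose, of 7 listed. Of 8 erythroid markers 7 were tested, with 2 higher and 2 lower, and of 9 neuronal markers 2 rose. Of 8 proliferation markers *Top2a*, *Ccnb1* and *Mcm2* fell, *Top2a* alone also with lane removed. With lane removed, the genes whose ranks were most like those of *Cox6a2* across the 154 embryos were *Tmem176b*, *Tnnc1*, *Acta2*, *Mylpf* and *Myl4*, with Spearman's rho from 0.607 to 0.621. For *Cox8b* the closest were *Crybb1*, *Tmem176b* and *Ttr*, from 0.546 to 0.561. These values describe likeness only, and the part of cell numbers in the rise of *Cox8b* and *Cox6a2* was not tested.

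Of 44 other genes of mitochondrial respiration tested, 8 changed with somite number (18.2%, near the 22% of all genes). In complex II, *Sdhc* fell and the other 3 did not pass. Of 11 assembly factors of complex IV, *Cox10* fell, and of 7 tested for complexes III and V, *Uqcc* fell. Of 12 tested enzymes of the citric acid cycle, *Cs*, *Ogdh* and *Suclg1* fell. Of 9 tested regulators of mitochondrial genes, *Esrra*, which encodes the nuclear receptor ERR alpha, rose and *Nrf1* fell. Of these 8 genes only *Uqcc* still passed with lane removed, when *Ttc19*, an assembly factor of complex III, rose (rho = 0.270, q = 0.0201) and *Tfam*, which packages mitochondrial DNA, fell (rho = −0.27, q = 0.0202).

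No member had a slope on somite number that differed between embryos of B6 and F1 mothers (edgeR's quasi-likelihood test of the interaction with lane in the model, 1 of 77 at an unadjusted p under 0.05). Of 10007 genes 1 was called, or 0.00999%. The smallest p among members were those of *Ndufs4*, *Uqcr11* and *Ndufc2*, which missed the threshold, with slopes that differed by 0.116, −0.057 and −0.085 on the log2 scale per somite and adjusted p (edgeR) of 0.809, 0.844 and 0.883.

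By the mother's genotype, 7 of the 74 autosomal members tested differed, against 5.03% of 9733 genes (Mann-Whitney U test, Bonferroni-adjusted p under 0.01). *Ndufb5* of complex I, *Uqcrh*, the hinge protein of complex III, *Cox6a1* of complex IV and *Atp5o*, the stalk subunit OSCP of ATP synthase, were higher with an F1 mother. *Uqcrc1*, *Ndufb7* and *Cox4nb* were higher with a B6 mother. Each difference was read over embryos whose lanes are nearly nested in the mother. Of 8 proliferation markers *Mki67*, *Ccnb1* and *Mcm2* were lower with a B6 mother, and of 10 muscle markers *Tnni1* and *Tnnc1* were higher, while no erythroid, hepatocyte or neuronal marker passed. Their part in the differences was not tested.

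*Ndufb5* ranged from 5.25 RPM through a median of 49.9 to 506 with B6 mothers and from 7.43 through 294 to 538 with F1 mothers. The means, 134 ± 143 and 275 ± 141 RPM, differed by −1.04 (log2 of B6 over F1 mother, adjusted p = 7.43e-05), and the ranges overlapped almost fully. *Atp5o* had medians of 250 RPM (13.1 to 1259) with B6 and 855 RPM (21 to 1491) with F1 mothers, with means that differed by −1.09 (adjusted p = 0.00177). *Uqcrh* had medians of 160 RPM (18.2 to 716) and 254 RPM (32.2 to 732), a difference of −0.73 (adjusted p = 0.00535). *Cox6a1* had medians of 597 RPM (60.1 to 1603) and 864 RPM (353 to 1486), a difference of −0.51 (adjusted p = 0.000161).

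In the other direction, *Uqcrc1* had a median of 1403 RPM (385 to 4364) with B6 and 937 RPM (596 to 1933) with F1 mothers, a difference of 0.58 (adjusted p = 0.000899). *Ndufb7* had medians of 1080 RPM (504 to 2987) and 789 RPM (503 to 2092), a difference of 0.46 (adjusted p = 0.000316). *Cox4nb*, which encodes a subunit of the ER membrane complex and lies beside *Cox4i1*, had medians of 269 RPM (131 to 472) and 216 RPM (163 to 288), a difference of 0.26 (adjusted p = 2.64e-06).

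Within flowcells, 6 of the 7 kept their direction, and *Atp5o* did not. Its means were 388 and 909 RPM in the first flowcell and 316 and 305 RPM in the second (log2 −1.23 and 0.050). None of the 7 passed within either flowcell. In the second, *Cox4nb* had an adjusted p of 0.0379, which missed 0.01. With the mean of each litter as 1 value (17 litters against 12) no member passed, nor with the mean of each lane. So few values cannot give a rank test an adjusted p under 0.01 over 9733 genes, so neither result bears on the 7. No member passed in limma voom with lane as a random block either, where the lowest q of the 7 was 0.369. At an unadjusted p under 0.05 the litter means, lane means and limma voom gave 11, 3 and 8 of 74 members. The share of all genes at that unadjusted p is not given here, so these counts cannot be set against it. Because lanes are nearly nested in the mother, mother and lane cannot be told apart for these 7 genes.

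Between the F1 crosses, 11 of 82 members differed, against 25.9% of 14625 genes (edgeR's quasi-likelihood test, q under 0.05). Only *Cox6a2* and *Cox8b* were higher in B6 × Cast embryos. The 9 that were lower there were *Ndufaf2*, *Ndufb11*, *Ndufc2*, *Ndufs1* and *Ndufa2* of complex I, *Uqcrfs1*, the Rieske protein of complex III, *Ndufa4* and *Cox7a2* of complex IV, and *Atp5b*. The median log2 difference was −0.135 over the members and −0.0324 over all genes. Stage and litter move with cross here, since the oldest litter is B6 × Cast and the youngest Cast × B6. Cross, mother, mitochondrial genome, the sex chromosomes of males, litter and stage cannot be told apart. By the labels, Cast × B6 litter 2 was sequenced in runs hs1 and hs2 and every other litter in gaIIx and hs1. Sequencing run therefore cannot be told apart from that litter either.

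*Cox6a2* was read at 35.4, 44.3 and 62.5 RPM (lowest, median, highest) in B6 × Cast and at 30.4, 34.1 and 40.3 RPM in Cast × B6, a log2 difference of 0.36 (SE 0.11, edgeR q = 0.0206). By litter its means were 56.5 RPM at 58 to 63 somites, 41.4 at 48 to 50, 33.3 at 46 to 48 and 36.2 at 41 to 43. *Cox8b* was read at 6.25, 9.47 and 12.1 RPM in B6 × Cast and at 3.5, 5.60 and 9.58 RPM in Cast × B6, a log2 difference of 0.52 (SE 0.19, edgeR q = 0.0493). Its litter means were 11.9 RPM in the oldest, 8.15 and 8.13 in the middle litters and 4.62 in the youngest. Both genes were thus highest in the oldest litter, and in the litters of overlapping stage neither passed (q = 0.0545 and 0.870).

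*Ndufa4* was read at 71, 95.9 and 138 RPM in B6 × Cast and 104, 207 and 368 in Cast × B6, a log2 difference of −1.23 (SE 0.28, edgeR q = 0.00528). The high values were those of Cast × B6 litter 1, at 229 to 368 RPM, while litter 2 lay at 104 to 186. *Ndufc2* was read at 30.9, 59.8 and 108 RPM and at 65.4, 127 and 169 RPM, a log2 difference of −1.02 (SE 0.24, q = 0.00577). *Ndufb11*, on the X chromosome, was read at 45.0, 61.6 and 75.4 RPM and at 63.9, 85.8 and 109 RPM, a log2 difference of −0.55 (SE 0.11, q = 0.00236). *Ndufaf2* was read at 61, 68.4 and 77.4 RPM and at 73.4, 87.8 and 101 RPM, a log2 difference of −0.40 (SE 0.077, q = 0.00208). *Atp5b* was read at 2845, 3084 and 3284 RPM and at 3047, 3803 and 4412 RPM, a log2 difference of −0.34 (SE 0.098, q = 0.0175). The ranges of the crosses overlapped for all 11 members. *Ndufb11* and *Ndufc2* were the 2 of the 11 that also passed between the litters of overlapping stage, with q of 0.0339 and 0.0444. The sequencing runs of those litters differed too, so that cross and run cannot be told apart there. The sex of the F1 embryos was not in the model, and its part in the values of the X-linked *Ndufb11* was not tested. In the 13 embryos with a somite number, 5 members passed (15.9% of all genes), namely *Ndufaf2*, *Ndufb11*, *Ndufa4*, *Ndufc2* and *Ndufs1*, in an alternative added after the data were seen. With somite number as a covariate in the same 13, none of the 11 passed and 1 other member did (1.6% of all genes). With Cast × B6 litter 2 left out 28 members passed (41.4%), without B6 × Cast litter 5 the count was 7 (19.3%) and without Cast × B6 litter 1 it was 6 (11.4%).

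Allele-specific expression was called for 16 of the 51 members tested, against 18.9% of 9084 genes, over F1 and heterozygous N2 embryos together (paired test of the votes of both alleles, Bonferroni-adjusted p under 0.01 and a B6 allele fraction, BAF, outside 0.45 to 0.55). More votes came from B6 in 10 members and from Cast in 6. A vote is the share of a read given to an allele by the SNPs it covers. Of the 86 members, 18 had no vote in any embryo, among them *Cox6b1*, *Atp5d*, *Uqcrq* and *Atp5g1*. The BAF lay on the same side of 0.5 in F1 and N2 embryos in 45 of the 51.

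*Ndufa10* of complex I (chromosome 1 from 94335587 to 94370437, mm9) had the smallest p. Its BAF was 0.724 to 0.814 in the B6 × Cast embryos (mean 0.763 ± 0.030, n = 8), 0.707 to 0.775 in Cast × B6 (0.734 ± 0.019, n = 8) and on average 0.768 ± 0.049 in N2 (n = 67). No F1 embryo came near equal alleles, and the Bonferroni-adjusted p was 6.53e-39. The assembly factor *Ndufaf2* (chromosome 13 from 108842784 to 108948819) had means of 0.650 ± 0.009 and 0.657 ± 0.019 in the F1 crosses and 0.700 ± 0.108 in N2 (n = 73). *Atp5e* had 0.771 ± 0.005, 0.774 ± 0.006 and 0.766 ± 0.110 (n = 79). *Ndufs6* had 0.867 ± 0.032, 0.869 ± 0.027 and 0.684 ± 0.131 (n = 77), and *Cox6c* 0.947 ± 0.030, 0.952 ± 0.030 and 0.791 ± 0.095 (n = 71). *Cox4i2* had 0.591 ± 0.054, 0.802 ± 0.053 and 0.765 ± 0.272 (n = 67). The other members higher from B6 were *Uqcrc2*, *Uqcrfs1*, *Cox6a1* and *Cox7a2*, with a pooled BAF from 0.600 to 0.822.

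The Cast allele gave nearly all votes of *Atp5j2*, the f subunit of ATP synthase (chromosome 5 from 145944567 to 145952931). Its BAF was 0.043 ± 0.023 in B6 × Cast, 0.054 ± 0.014 in Cast × B6 (n = 8 each) and 0.016 ± 0.009 in N2 (n = 75), and the highest F1 embryo reached 0.079. *Atp5o* had 0.090 ± 0.026, 0.191 ± 0.096 and 0.232 ± 0.095 (n = 75), and *Ndufv3* 0.424 ± 0.009, 0.437 ± 0.025 and 0.408 ± 0.032 (n = 68). *Ndufs5*, *Ndufa4* and *Ndufc1* were the other 3, with pooled BAFs of 0.309, 0.434 and 0.357. *Ndufs5* rested on few votes, 2889 in F1 and 715 in N2, and its BAF was 0.378 and 0.0294.

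By complex, 6 of 24 tested members of complex I were called, 2 of 4 of complex III, 5 of 12 of complex IV and 3 of 8 of complex V. At the other end, the abundant *Ndufa3* (pooled BAF 0.490), *Ndufa13* (0.514), *Cox4i1* (0.476) and *Ndufv1* (0.525) had an adjusted p under 0.01 with a BAF inside the window and were not called.

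Many subunit genes have processed copies elsewhere in the genome, which can share reads and SNPs with the gene. The last 300 bases of the mRNA of 37 of the 86 members matched another place in mm9 (at least 90% identity over at least 75 bases). The longest match of a member ran from 82 aligned bases for *Atp5e* to 302 for *Ndufb11*, so a short match need not be a processed copy. For *Atp5g1* the end holds a repeat with 6593 matches. Among tested members with a copy, 10 of 19 were called, the median distance of the BAF from 0.5 was 0.143 and the median gap between F1 and N2 was 0.104. Among those without a copy, 6 of 32 were called, the median distance was 0.0376 and the median gap 0.0243. The 6 were *Ndufa10*, *Ndufaf2*, *Ndufv3*, *Cox4i2*, *Uqcrc2* and *Uqcrfs1*. The level also differed more than 2-fold between F1 and N2 embryos in 9 of 32 members with a copy and 5 of 45 without, among members with at least 5 RPM. For the 10 called members with a copy, among them *Atp5j2*, *Atp5o*, *Ndufs6* and *Cox6c*, the source of the reads is uncertain.

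*Cox4i2* was the only member whose BAF in heterozygous N2 embryos differed between the crosses, against 1.18% of 5686 genes (Mann-Whitney U test of embryos with at least 5 votes, q under 0.05, a test chosen after the data were seen). With a B6 mother, whose B6 allele is the maternal one, its BAF was 0.642 ± 0.172 (SD, n = 22), and with an F1 mother, where it is paternal, 0.873 ± 0.184 (SD, n = 14, q = 0.0337). In the F1 embryos it was 0.507 to 0.672 in B6 × Cast and 0.719 to 0.895 in Cast × B6, without overlap (exact permutation p = 0.000155, two-sided, 8 against 8). The B6 allele was thus the higher in both crosses and had the larger share when it came from the father.

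*Cox4i2* lies on chromosome 2 of mm9 from 152579909 to 152590773, near *H13* (152495197 to 152534406) and *Mcts2* (152512884 to 152513676), an imprinted pair in which *Mcts2* is known to be expressed from the paternal allele. The neighbours were read after the result for *Cox4i2* was known. The mean BAF of *Mcts2* was 0.030 ± 0.031 where the mother was B6 and 0.951 ± 0.058 where she was Cast, and that of *H13* was the reverse, 0.668 ± 0.045 and 0.234 ± 0.035 (n = 8 each). Between them and *Cox4i2* lies *Id1*, with 0.480 ± 0.017 and 0.569 ± 0.027 in the F1 crosses, without overlap, and 0.481 ± 0.119 (n = 40) and 0.569 ± 0.092 (n = 36) in N2 embryos of B6 and F1 mothers (q = 0.0112). On the other side, *Bcl2l1* had 0.477 ± 0.083 and 0.585 ± 0.060 in the F1 crosses, with overlap, and too few embryos with votes for the test. *Tpx2*, next after it, had 0.511 ± 0.032 and 0.532 ± 0.025 in F1 and did not pass in N2 (0.476 ± 0.116 and 0.464 ± 0.086, q = 0.876).

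**Figure D4:**
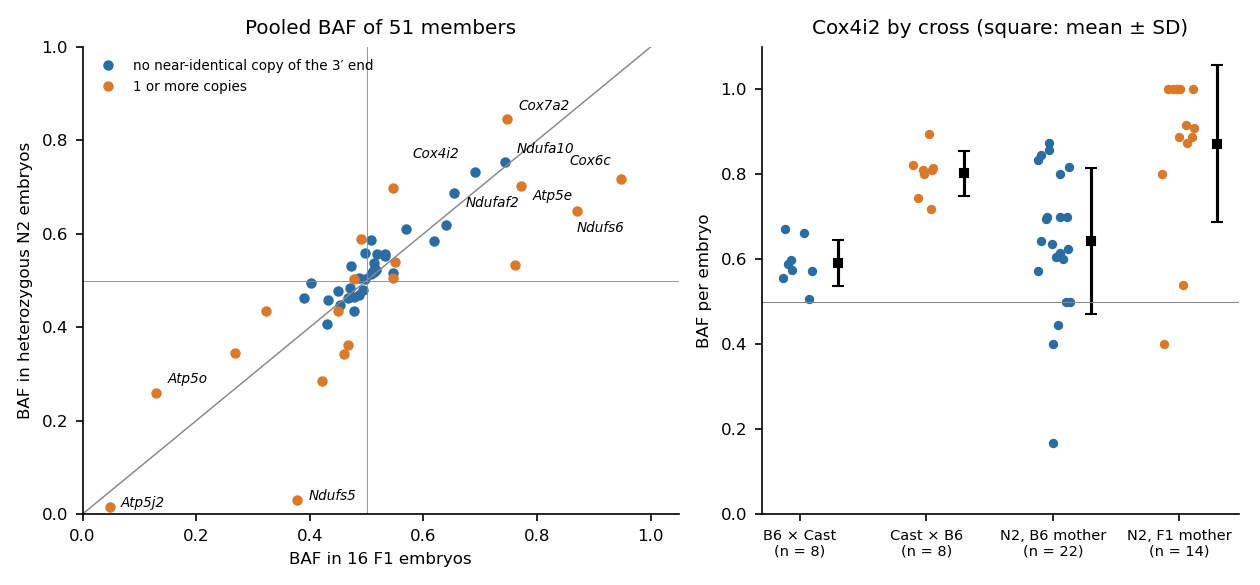
Left, pooled BAF in heterozygous N2 embryos against pooled BAF in 16 F1 embryos for the 51 members tested, in colour by whether the 3′ end has a near-identical copy in mm9, with the diagonal and lines at 0.5. Right, BAF of *Cox4i2* per embryo in each cross, with squares and bars for mean ± SD, where the B6 × Cast embryos (0.507 to 0.672) lie below the Cast × B6 embryos (0.719 to 0.895).

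By the embryo's own genotype at the gene, 26 of 74 autosomal members differed in total level, against 28.7% of 9733 genes (rank-sum test on log2(RPM + 1) with lane, sex, somite number and 15 principal components removed, q under 0.01). Homozygous B6 embryos were higher for 15 and lower for 11. The differences ran from 0.044 to 0.84 on the log2 scale in size, with a median of 0.21.

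*Atp5j2* was read at 20.4, 331 and 1094 RPM (lowest, median, highest) in 79 homozygous and at 120, 792 and 1604 RPM in 75 heterozygous embryos. The ranges overlapped, and the difference with covariates removed was −0.84 (log2, SE 0.071, q = 7.76e-18). More votes thus came from Cast, and the total level was higher in embryos with a Cast allele. The 3′ end of *Atp5j2* has 4 near-identical copies in mm9, so the source of these reads is uncertain. *Atp5g1*, whose 3′ end holds a repeat and which had no votes, was read at 21.2, 96.2 and 287 RPM in 77 homozygous and 15.1, 53.3 and 136 RPM in 77 heterozygous embryos, a difference of 0.79 (SE 0.063, q = 9.81e-18). *Atp5b*, the highest member of all, was read at 1393, 2764 and 4087 RPM in 77 homozygous and 1256, 3450 and 5585 RPM in 77 heterozygous embryos, a difference of −0.19 (SE 0.016, q = 5.10e-17). Its BAF, 0.473 in F1 and 0.530 in N2 with only 181 votes there, did not pass. *Ndufa10* was read at 167, 732 and 1236 RPM in 87 homozygous and 89.2, 487 and 912 RPM in 67 heterozygous embryos, a difference of 0.25 (SE 0.029, q = 3.57e-13). *Ndufv3* was read at 235, 616 and 1212 RPM in 86 and 346, 803 and 1803 RPM in 68, a difference of −0.23 (SE 0.027, q = 1.39e-11).

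*Atp5o* (−0.62), the assembly factor *Ndufaf3* (−0.21) and *Ndufa5* (−0.22) were also lower in homozygous B6 embryos. *Atp5e* (0.21), *Ndufaf2* (0.24), *Ndufs6* (0.22), *Cox7a2l* (0.54), *Cox7a2* (0.25), *Cox8b* (0.31) and *Cox4i2* (0.21) were higher. *Uqcrc2* was higher by 0.16 with covariates removed, although its mean RPM was lower, 113 ± 109 in homozygous and 145 ± 122 in heterozygous embryos. By complex, 7 members of complex I were higher and 4 lower of 35, 1 of 7 higher in complex III, 4 higher and 1 lower of 17 in complex IV, and 3 higher and 5 lower of 13 in complex V. Of the lower 11, *Cox4nb* is no subunit.

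The direction of the allele votes and of the own-genotype difference were set side by side in the 49 members tested for both, which share the N2 embryos. They were the same in 36, in 15 of 15 members called for allele-specific expression, and in 15 of 16 called for own genotype. In all, 11 members were called in both, namely *Ndufa10*, *Ndufaf2*, *Ndufs6*, *Ndufv3*, *Ndufa4*, *Uqcrc2*, *Cox7a2*, *Cox4i2*, *Atp5e*, *Atp5j2* and *Atp5o*, and 6 of the 26 had no votes in N2 embryos. If each allele acts alone, the mean levels of the 2 genotypes predict a BAF, given here for all 11. Among the 5 without a near-identical copy it was 0.712 for *Ndufa10* against 0.754 measured in N2 embryos, 0.372 for *Ndufv3* against 0.406, 0.661 for *Ndufaf2* against 0.686 and 0.716 for *Cox4i2* against 0.733. For *Uqcrc2* it was 0.389 against 0.584, on the other side of 0.5. Among the 6 with a copy it was 0.632 for *Atp5e* against 0.702, 0.294 for *Ndufa4* against 0.343, 0.553 for *Ndufs6* against 0.649 and 0.403 for *Atp5o* against 0.260. It was 0.618 for *Cox7a2* against 0.845 and 0.280 for *Atp5j2* against 0.0142. Genes with and without a copy both included predictions near the votes and predictions far from them.

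**Figure D5:**
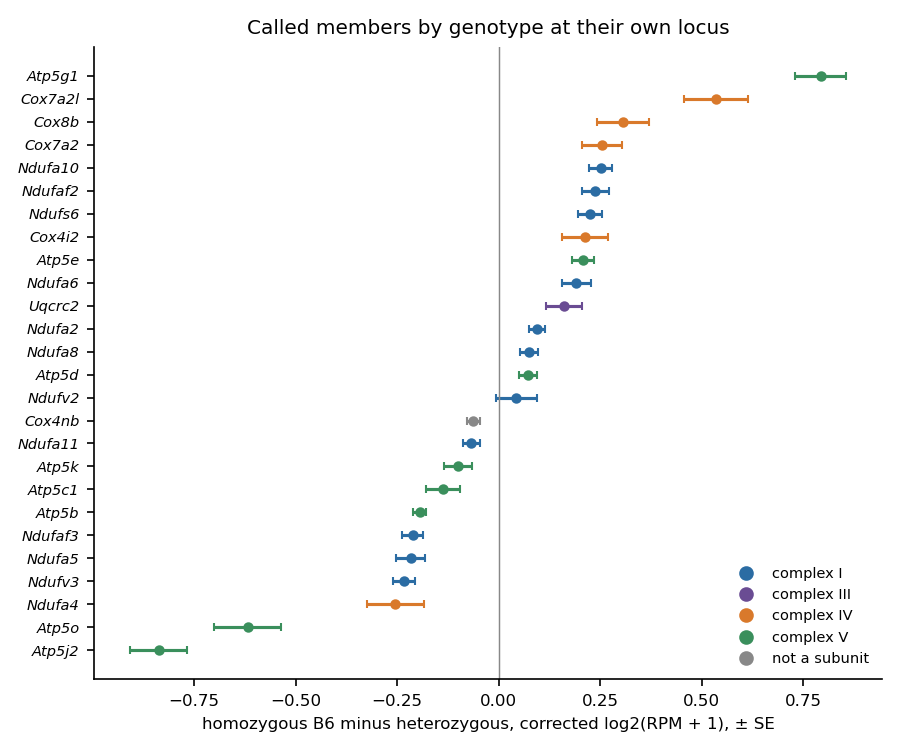
Difference between homozygous B6 and heterozygous embryos in log2(RPM + 1) with covariates removed, ± SE, for the 26 members called, coloured by complex. *Atp5g1* (0.79) and *Atp5j2* (−0.84) lie at the 2 ends, and both belong to complex V.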

How the data were processed

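3SEQ reads were mapped by the authors with Bowtie2 to mm9 and to a Cast genome built on it, reads at repetitive positions were dropped, and raw counts per RefSeq gene were deposited without normalization. Allele votes were deposited as estimated counts, also unscaled, beside a genotype score per gene and N2 embryo from the authors' hidden Markov model (heterozygous, homozygous B6 or not called). Labels gave cross, litter, lane and somite number. Of 168 N2 columns, 8 carry labels that name no cross and entered no comparison, and 6 without genotypes were used in 1 alternative. In the N2 embryo of median depth (2297774 reads), 5 RPM, the minimum mean for expression tests, is about 11.5 reads, so single embryos are imprecise at the low members. Labels do not say that embryos of a litter are independent, and p-values measure the spread between embryos.

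Rank tests and the paired t-test followed the methods of the study and were run over the whole table, with p adjusted over all genes tested. Counts call for a count model, so edgeR 4.0.16, DESeq2 1.42.0 and limma 3.58.1 served as alternatives, and edgeR as the main test of the F1 crosses and of the interaction (R 4.3.3). Principal components replaced the PEER factors of the study. Allele tests needed 20 votes per cross, and permutation tests used 100000 resamples. Positions come from the GENCODE annotation of mm9, in which all 86 members have the same chromosome and strand, and copies from BLAST+ 2.17.0. Other steps ran in Python 3.11.15 with scipy 1.17.1. The scripts were tested on simulated data with known changes.

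The members and gene lists were chosen with earlier results of these data known. Named genes are the called members of smallest p, up to 6 in each direction per test, the tissue isoforms with their partners, and the 3 highest members of each complex. Other names complete a count or were picked with their values in view. The GC slope, the test of BAF by parent, the neighbours of *Cox4i2* and the fit to the 13 F1 embryos with a somite number were added after the data were seen.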

Additional observations from a re-analysis of the deposited data

Results flagged for a closer look

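In groups of 8 F1 embryos, 86 groups were examined for 1 embryo far from the rest (Dixon's criterion), of which chance alone marks about 1 in 20, and 5 stood out. *Atp5o* was at 250 RPM in 1 Cast × B6 embryo, where the next lowest had 593 and the highest 797. *Uqcrh* was at 580 RPM in 1 Cast × B6 embryo, where the next had 301 and the lowest 147. *Ndufs5* was at 14.0 RPM in 1 Cast × B6 embryo against 8.97 in the next. *Cox7b2* was read in only 1 embryo of each cross, at 0.0640 RPM in B6 × Cast and 0.0410 in Cast × B6, with 0 in the others. The first 3 of these genes have a near-identical copy of their 3′ end elsewhere in mm9, and the part of that copy in the values was not tested.

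The BAF of *Cox4i2* in heterozygous N2 embryos differed by −0.23 between embryos of B6 and F1 mothers (Mann-Whitney U test, q = 0.0337), in the direction seen in the F1 crosses. The difference rests on 22 and 14 embryos with at least 5 votes, and 449 votes in all N2 embryos.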

How the results depend on the processing

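Several counts of members called moved by over 1.5 times, and the share of all genes called at the same setting is given in parentheses. For somite number, 9 members became 43 within the B6 × F1 (51.6%) and 19 within the F1 × B6 embryos (23.1%). The count was 32 on the second flowcell (39.2%) and 21 without the 13 libraries under 1000000 reads (27.3%). It was 18 with the GC slope removed (25.2%) and 1 with litter means (1.74%). With counts divided by the TMM factor alone, and not by the library total, it was 1 (6.27%), and depth remains in that setting. *Uqcrc1* reversed to −0.0071 (log2 per somite) in edgeR with lane and to a rho of −0.11 with lane and GC slope removed, and *Cox4i2* to −0.027 with both removed. For the mother's genotype, 7 became 26 at a Benjamini-Hochberg q under 0.05 (31.6%), 4 with all matched embryos (3.34%) and 3 without the shallow libraries (2.99%). The count was 2 with the TMM factor alone (2.56%), and 1 and 0 within the first and second flowcell (2.18% and 0.247%). It was 0, as over all genes, with litter means, lane means or limma voom with a lane block. Litter and lane means are too few for any gene to reach the threshold. On the second flowcell 48 of 74 members had an unadjusted p under 0.05. The share of all genes at that p is not given here, so this count says nothing particular to the members. For allele-specific expression, 16 became 8 in F1 embryos alone (9.36%) and 30 with no window on the BAF (23.2%). For own genotype, 26 became 11 without covariates (12.2%), 14 in embryos of F1 mothers (12.2%) and 17 with the TMM factor alone (19.0%). Between F1 crosses, 11 became 7 without B6 × Cast litter 5 (19.3%), 6 without Cast × B6 litter 1 (11.4%), 28 without Cast × B6 litter 2 (41.4%), 5 in the 13 embryos with a somite number (15.9%), 1 in those 13 with somite number as a covariate (1.6%) and 7 with total reads in place of TMM (23.4%). The other alternatives stayed within 1.5 times the main count. Why each count moved was not tested. No paired analysis was possible between crosses or mothers, because replicate numbers that groups share only name embryos and each litter belongs to 1 cross. In the own-genotype test a litter can hold both genotypes, and litter was not in that model. Both alleles of an embryo were paired in the allele test. Depth limits the BAF of the low members most.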

Other observations

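The 8 N2 columns whose labels name no cross held between 5 and 1210811 reads on genes, and the members together reached between 0 and 43253 RPM in them, with a median of 36601. In the N2 embryos with a cross, the mean of a lane ran from 27125 to 42972 RPM.

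Outside the subunits, the enzymes of the citric acid cycle included 2 of 11 tested that were lower with a B6 mother (5.03% of all genes differed), and 3 of 13 that were lower in B6 × Cast than in Cast × B6 embryos (edgeR, q under 0.05; 25.9% of all genes differed), with none higher in either comparison. Of 11 assembly factors of complex IV, 3 were lower in B6 × Cast embryos and none higher, and of 11 regulators of mitochondrial genes 3 were lower and none higher, shares near that of all genes. Among them *Tfam*, the main factor of mitochondrial DNA packaging and transcription, differed by −0.66 on the log2 scale (edgeR adjusted p = 0.000487). The hepatocyte markers went the other way, with 5 of 6 higher in B6 × Cast, while 3 of 8 proliferation markers were lower and 1 higher. The litters differ in stage. In the 13 embryos with a somite number, the hepatocyte calls were 4 without somite number in the model and none with it, where *Alb* went from 1.56 in all 16 embryos to −0.043 (edgeR q = 0.955). *Tfam* then had −0.46 (q = 0.115) and did not pass. With somite number in the model 1 of the 11 regulators, *Tfb1m*, and no gene of the citric acid cycle or complex IV assembly lists passed, against 1.6% of all genes.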
